A study of Mus musculus with 12 samples.

Results

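The Speer4 genes of mouse chromosome 5 are a family of closely similar copies, and 9 of them lie in a pair of regions where the deposited lists of H3K36me2 peaks are crowded. The regions (mm10, chromosome 5, 14900152 to 15062266, here the first region, and 15464160 to 15712175, the second) were chosen by the number of peaks, which was high there in both lists, so that number is a description and no test of it was made. All peaks that overlapped either region by at least 1 bp were taken. They numbered 56 of the 3722 peaks in both lists together, 27 of 231 in the control list and 29 of 3491 in the knockout list.

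Histone H3 dimethylated at lysine 36 was immunoprecipitated from chromatin of the somatosensory cortex of mice aged 2.5 months, and the DNA was sequenced (ChIP-seq). The knockouts carried the genotype Nsd1Nex-cKO (cKO), in which Cre driven from the Nex locus acts in excitatory neurons of the forebrain, so that glia, vessels and interneurons of the same tissue are not targeted and can keep the NSD1 methyltransferase. The controls (Ctrl) carried floxed alleles, with 2 of 3 immunoprecipitated libraries labelled Nsd1fl/+ and 1 labelled Nsd1fl/fl, and whether they also carried Cre is not given in the sources used here. Each genotype had 3 immunoprecipitated and 3 input libraries but a single peak list, so no value below carries replicate error and no p-value was computed. Read depth is unknown from the lists, and in bulk tissue fewer marked cells and less mark per cell cannot be told apart. Nsd1 itself held 0 peaks in either list, which does not check its deletion, since the lists hold peaks and not coverage. Tissue identity could not be checked from peak lists either.

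Speer genes encode glutamate-rich proteins known from spermatogenesis, and they are expressed in the testis. H3K36me2 is written by NSD-family enzymes, typically as broad domains over genes and intergenic chromatin rather than as narrow peaks. The members Speer4c, Speer4d and Speer4e carry the family name, whereas Gm9758, Gm10354, Gm17019, Gm21149, Gm21190 and Gm21083 carry only predicted-gene names. All 9 are annotated as protein-coding by RefSeq (GRCm38.p6, which numbers the chromosomes as mm10 does), with bodies of 4067 to 4845 bp. The first region holds Gm9758, Speer4e, Gm10354 and Gm17019, and the second holds Gm21149, Gm21190, Gm21083, Speer4d and Speer4c. Gm21083 and Speer4d are on the plus strand and the other 7 on the minus strand.

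The copies are close in sequence. RefSeq promoter windows of 300 bases (250 before and 50 after the annotated start) were found for 9 of 9 members. Over the 36 pairs of members, aligned bases were 96.6 to 99.1% identical, and the longest run without a difference was 45 to 208 bases. A stretch of 151 bases before the start is shown for 4 members that differed in their peaks. These are Gm21083, whose start lay under a cKO peak, Speer4c, which had a control peak in its body, Gm17019, which had peaks of both lists close before its start, and Gm9758, which had cKO peaks past its end and none close before its start. Capitals mark the longest run that all 9 members share before their starts, 31 bases long.
Gm21083 (plus strand, chr5:15577089-15577239): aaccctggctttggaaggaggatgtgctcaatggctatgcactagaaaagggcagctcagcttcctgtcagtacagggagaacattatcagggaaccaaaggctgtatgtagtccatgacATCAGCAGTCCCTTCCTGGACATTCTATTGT
Speer4c (minus strand, chr5:15714300-15714450): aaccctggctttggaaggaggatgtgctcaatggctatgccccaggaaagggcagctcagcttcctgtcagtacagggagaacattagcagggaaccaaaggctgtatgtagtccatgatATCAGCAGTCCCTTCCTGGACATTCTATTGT
Gm17019 (minus strand, chr5:15033036-15033186): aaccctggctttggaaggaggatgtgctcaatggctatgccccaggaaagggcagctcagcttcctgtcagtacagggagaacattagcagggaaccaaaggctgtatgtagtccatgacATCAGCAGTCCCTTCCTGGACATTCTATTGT
Gm9758 (minus strand, chr5:14914927-14915077): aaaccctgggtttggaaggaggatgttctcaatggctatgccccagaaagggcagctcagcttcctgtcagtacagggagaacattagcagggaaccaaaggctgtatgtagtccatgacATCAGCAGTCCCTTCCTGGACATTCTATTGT

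In this stretch Speer4c and Gm17019 differed at 1 base, Gm21083 and Speer4c at 5, and Gm17019 and Gm21149 at 0. The 31-base run was found, on either strand, in 10 of the 32851 promoter windows of the RefSeq table (0.0304%), the 9 members and Gm7361, another predicted gene of chromosome 5. The member windows were poor in CG dinucleotides (C followed by G), with 7 of 9 holding 0 and the other 2, Gm10354 and Gm21190, holding 1, against a median of 7 over all windows. At most 1 CG was found in 14.1% of all windows. How reads that match several copies were placed is not given in the sources used here, so a peak beside one copy may hold reads from another, and its part in these peaks was not tested.

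Most peaks lay outside the member bodies, which make up a small part of the regions. Of the 56 peaks, 2 (3.57%) overlapped a member's body, 1 in each list. Member bodies took up 40.3 kb of the 410.1 kb of both regions (9.83%), and the difference between these shares was not tested. Speer4c held 1 control peak of 323 bp inside its body (15711853 to 15712175, fold enrichment 1.77), and Gm21083 held 1 cKO peak of 968 bp across its start (15576835 to 15577802, fold 1.99). Fold enrichment is the authors' own ratio of immunoprecipitated reads to the background expected by the peak caller. Both calls were weak, with a −log10 q, the caller's adjusted significance, of 0.000258 for Speer4c and 0.249 for Gm21083. The remaining 7 members held 0 peaks in either list.

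For comparison, 0.26% of protein-coding genes held a control peak and 5.47% a cKO peak in their bodies, and over annotated genes of every kind the shares were 0.166% and 3.12%. Among the 658 protein-coding genes within the members' range of length, 1 held a control peak (0.152%) and 4 held a cKO peak (0.608%). That set included the 9 members themselves. Its 1 gene with a control peak was Speer4c, and Gm21083 was among the 4, so it is not a comparison apart from the members. The Gm21083 peak was the 1 case in 9 of a peak over a member's promoter window, in the cKO list, where 0.07% of all windows had one. The control list had 0 of 9 member windows with a peak, against 0.0122% of all windows. Since the regions were picked for their peaks, nothing is read from these shares about the family.

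**Figure D1:**
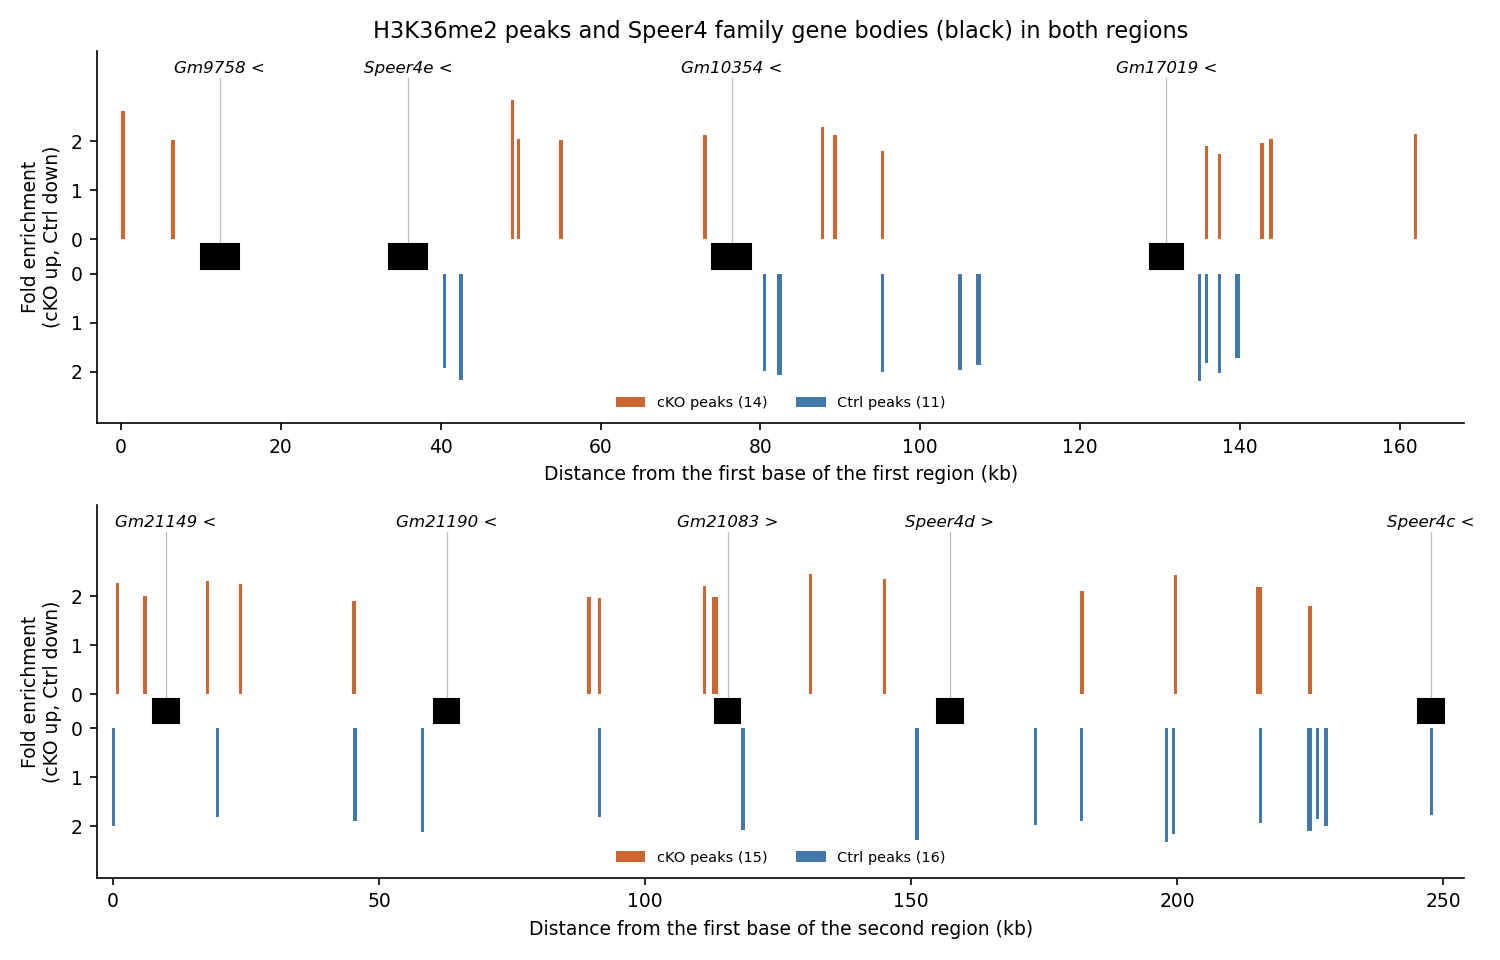
Fold enrichment of each peak (vertical, cKO upward and Ctrl downward) along the first region (top) and the second region (bottom), in kb from the first base of the region, with member gene bodies in black and arrowheads for strand. Peaks too narrow to see are drawn at a minimum width, and of 56 peaks only those at Gm21083 (cKO) and Speer4c (Ctrl) overlap a member body.

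Counts around the genes took in the bodies as well, so they cannot be lower than counts in the bodies. In a body or within 2 kb of it, 5 of 9 members had a control peak and 3 of 9 a cKO peak. The shares of protein-coding genes were 0.302% and 6.04%, and Gm10354 and Gm21083 had both. The control counts at 2 and 10 kb both include Speer4c, whose only control peak there lay in its body. Within 10 kb, a distance chosen after the peaks were seen, 8 of 9 had a control peak and 6 of 9 a cKO peak (0.461% and 9.06% of protein-coding genes), and 5 had both. Members of regions picked for many peaks must lie near peaks more often than other genes, so nothing is read from these shares either. The distance from a member to its nearest control peak ran from 0 to 25.6 kb with a median of 1.95 kb, and to its nearest cKO peak from 0 to 20.2 kb with a median of 3.33 kb.

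In the first region 9 of 11 control and 11 of 14 cKO peaks stood before the start of the nearest member, as read along its strand. The share of either region that lies before the start of its nearest member was not computed. No preference for that side is therefore read from such counts. Speer4e had 2 control peaks centred 4.18 and 2.16 kb before its start, with folds of 2.16 and 1.92. Gm10354 had 3 control peaks centred 16.5, 3.69 and 1.75 kb before its start, with folds of 1.997, 2.06 and 1.97. The 2 peaks nearest the start lay 2.01 kb apart before Speer4e and 1.94 kb apart before Gm10354. Gm17019 had 4 control peaks, centred 6.92, 4.58, 3.01 and 2.14 kb before its start, with folds of 1.72, 2.02, 1.83 and 2.19. Here the 2 nearest the start lay only 0.869 kb apart, so that spacing was not shared by all copies. Gm9758 had 0 control peaks within 20 kb of its start.

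The cKO peaks of the same genes stood both at control peaks and apart from them. Speer4e had cKO peaks centred 10.7, 11.4 and 16.7 kb before its start, with folds of 2.84, 2.06 and 2.02. Gm10354 had them 9.004, 10.6 and 16.5 kb before its start, with folds of 2.29, 2.12 and 1.80, the last of them on the control peak at that distance, and 1 more past its end at 5.67 kb from the start, with a fold of 2.14. Gm17019 had cKO peaks centred 3.02 and 4.59 kb before its start, both on control peaks, and 2 more at 9.91 and 11.1 kb. Gm9758 had cKO peaks only past its end, centred 8.25 and 14.5 kb from its start, with folds of 2.02 and 2.63.

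In the second region 3 of 16 control and 6 of 15 cKO peaks stood before the start of the nearest member. Speer4d had 1 control peak centred 3.83 kb before its start (fold 2.29) and 1 cKO peak 9.88 kb before it (fold 2.34). Gm21149 had a control peak 7.19 kb before its start (fold 1.80) and cKO peaks at 5.43 and 11.6 kb (folds 2.31 and 2.24). Gm21083 had a cKO peak 1.97 kb before its start (fold 2.21) beside the one across it, and a control peak just past its end (fold 2.08). Speer4c and Gm21190 had 0 peaks of either list within 20 kb before their starts. Over all 9 members, 8 control peaks (of 4 members) and 3 cKO peaks (of 2) were centred up to 5 kb before a start. From 5 to 15 kb before one there were 2 control peaks (of 2 members) and 9 cKO peaks (of 5). These bounds were chosen after the positions were seen, and the difference was not tested.

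**Figure D2:**
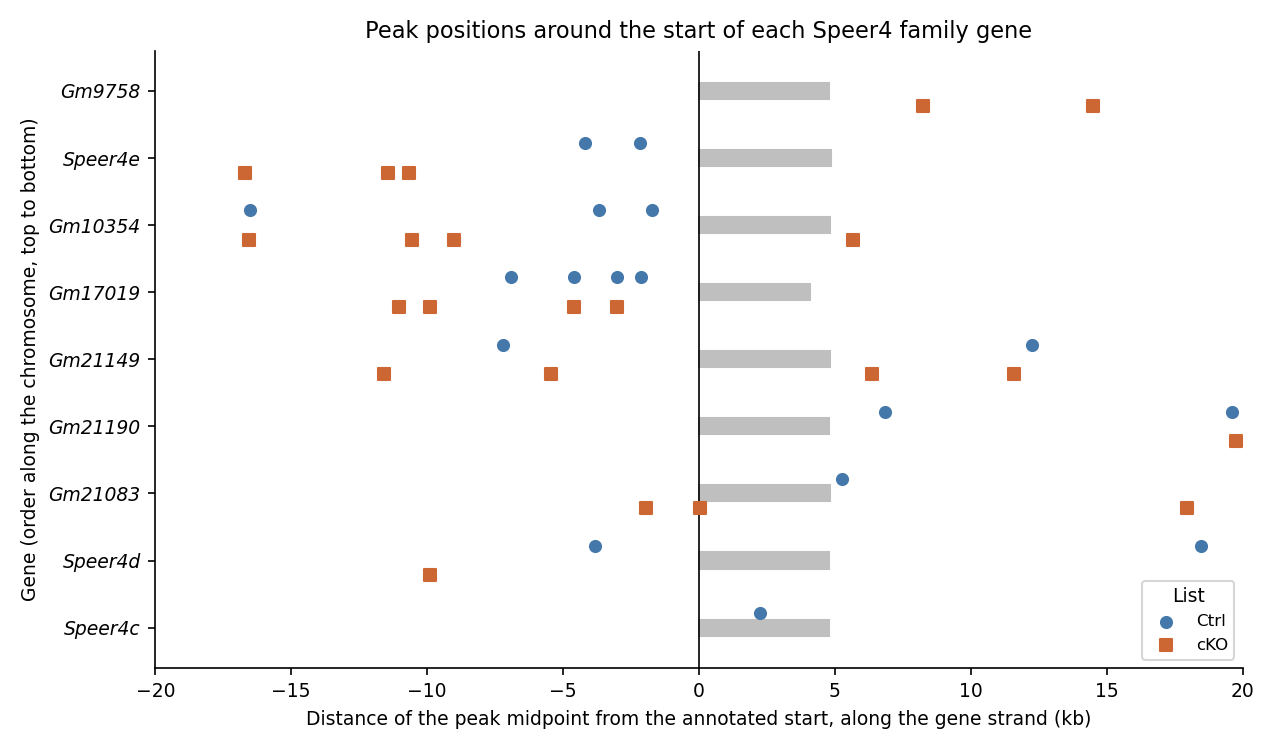
Distance of each peak midpoint from the annotated start of each member (horizontal, kb along the gene strand, negative before the start), with control peaks as circles, cKO peaks as squares and gene bodies as grey bars. Control peaks lie 1.75 to 4.18 kb before Speer4e and Gm10354, with 1 more at 16.5 kb before Gm10354, and the cKO peaks before both genes lie 9.004 to 16.7 kb from the start. Speer4d has the same order (control 3.83 kb, cKO 9.88 kb). Other members differ, with cKO peaks 3.02 and 4.59 kb before Gm17019, 1.97 kb before Gm21083 and 5.43 kb before Gm21149.

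By region, the first held 11 control peaks over 5009 bp and 14 cKO peaks over 5135 bp, and the second held 16 over 7548 bp and 15 over 7542 bp. Peaks therefore covered 3.09% and 3.17% of the first region in the control and cKO lists and 3.04% of the second in both. The cKO to control ratio in number of peaks was 1.07 here against 16.97 over the rest of the lists, a contrast that follows in part from picking regions with many peaks in both. It was 0.958 in Sfi1 and 1.125 in Sp110 and Sp140, other genes crowded with peaks. The bounds of both regions are the outer edges of their first and last peaks. The peaks at the edges and, in part, the covered shares and the empty interval therefore follow from how the regions were drawn. The interval between the regions, 401.9 kb without an annotated gene, held 0 peaks in either list. The first peak inside the first region was a cKO peak (14900152 to 14900673, fold 2.63) and the nearest peak before it lay 1606 kb away (cKO, fold 2.78). The last peak inside the second region was the Speer4c control peak, and the nearest peak after it lay 1756 kb away (Ctrl, fold 2.31).

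The peaks were weak in fold and wide for their lists. Control peaks in the regions had a median fold of 1.97 (95% interval from order statistics 1.88 to 2.08, range 1.72 to 2.32), and the other 204 control peaks had a median of 2.28. The cKO peaks had a median of 2.11 (1.99 to 2.24, range 1.73 to 2.84), against 2.83 over the other 3462. Folds below the median of the other peaks of the list were carried by 25 of 27 control and 28 of 29 cKO peaks. Median width was 386 bp (316 to 522) against 279.5 bp in controls, and 427 bp (358 to 471) against 249 bp in cKO. These intervals treat peaks as independent and reflect only the spread among peaks of the same list, not replicate error.

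Among other peaks of the same list whose folds lay within the range of the Speer4 peaks, median width and −log10 p were lower. In controls, 61 such peaks had a median width of 250 bp and a median −log10 p of 3.86, against 386 bp and 4.52 in the Speer4 regions. In cKO, 1689 such peaks had medians of 271 bp and 3.47, against 427 bp and 4.53, but their median fold was 2.71 against 2.11, so they were not matched in fold. Low folds and wide peaks were also seen at other crowded genes. Sfi1, a centrosomal protein gene, had median folds of 1.48 in 24 control peaks and 1.52 in 23 cKO peaks and median widths of 451 and 432 bp. Sp110 and Sp140, nuclear body genes, had median folds of 1.97 in 8 control peaks and 1.84 in 9 cKO peaks and median widths of 498.5 and 470 bp.

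**Figure D3:**
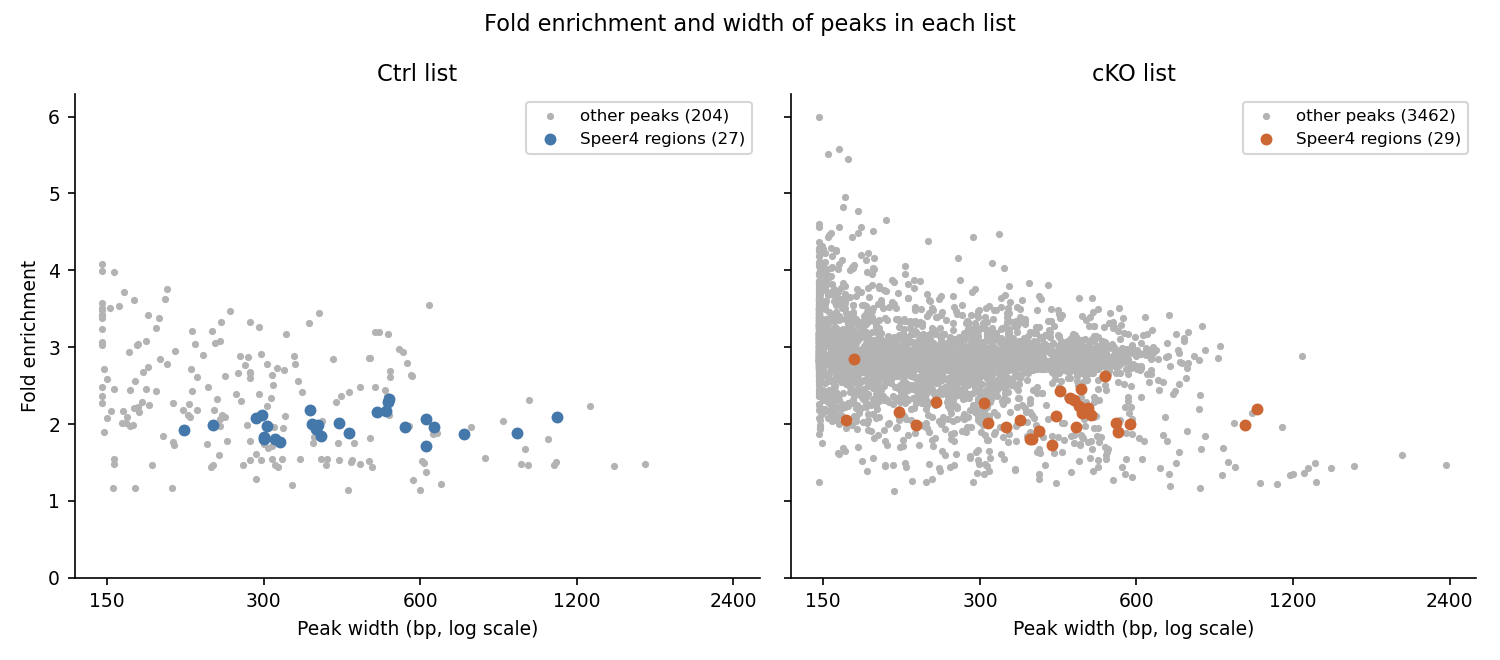
Fold enrichment against peak width (log axis, bp) for the peaks of the Speer4 regions (coloured, 27 Ctrl and 29 cKO) and for the other peaks of each list (grey). The Speer4 peaks lie between folds of 1.72 and 2.84, in the lower part of both lists, with 28 of 29 cKO peaks below the median of 2.83 of the other cKO peaks.

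Of 27 control and 29 cKO peaks, 3 and 7 had q-values under 0.05, and 1 (3.70%) and 4 (13.8%) had a −log10 q of 2 or more, against 9.31% and 10.7% of the other peaks of each list. The control peak was the one centred 3.69 kb before Gm10354 (14982279 to 14982893, 615 bp, −log10 q 2.55). In cKO the strongest was a narrow peak of 172 bp inside the pseudogene Speer8-ps1 (14949044 to 14949215, −log10 q 3.70), which also had the highest fold of the regions, 2.84. It was followed by a peak of 553 bp at 15509181 to 15509733 (−log10 q 3.20), 14.7 kb from Gm21190. The other 2 lay at 14987780 to 14988026, before Gm10354 (2.32), and at 15663711 to 15664137 (2.23), both named here because the count is small. A −log10 q of 0, the lowest possible, was carried by 4 control and 0 cKO peaks. For this count and for that of q-values under 0.05, the share among the other peaks was not computed. Nothing is therefore read from either count.

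The highest control folds were 2.19 in the first region (15034963 to 15035330, before Gm17019) and 2.32 in the second (15661938 to 15662459, 38.1 kb past Speer4d). The highest cKO fold of the second region was 2.45 (15595011 to 15595480), in the long noncoding RNA gene Gm30613. The widest peaks were 728 bp in the first region (Ctrl, 15007093 to 15007820) and 1101 bp in the second (Ctrl, 15688521 to 15689621, in the pseudogene Speer4cos). The widest cKO peaks were 547 bp in Speer8-ps1 (14954912 to 14955458) and 1025 bp at 15679076 to 15680100.

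Of 56 peaks, 16 overlapped an annotated gene and 40 overlapped none. All 16 (28.6%) overlapped one of the 7 pseudogenes and long noncoding RNA genes of the regions, which together took up 148.8 kb of them (36.3%), and 2 of the 16 also lay in a member. Speer8-ps1 held 4 cKO peaks with folds of 2.02 to 2.84 and 0 control peaks. Speer4cos held 4 control peaks with folds of 1.77 to 2.09 and 1 cKO peak with a fold of 1.80, and 1 of the 4 was the peak it shares with the overlapping Speer4c. Gm30613, which overlaps Gm21083, held 1 control and 3 cKO peaks. The noncoding genes Gm21847 and Gm30417 held 1 control peak each and 0 cKO peaks, Gm52805 held 1 cKO peak and 0 control peaks, and the pseudogene 4930572O03Rik held 0.

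Control and cKO peaks of the regions matched at 9 places. Overlap of at least 1 bp was found for 9 of 27 control peaks (33.3%, Wilson 95% interval 18.6 to 52.2) and 9 of 29 cKO peaks (31.0%, 17.3 to 49.2), against 42.4% and 2.81% over the whole lists. The first region had 3 pairs and the second 6. Thus 18 control and 20 cKO peaks had no partner, although both lists were dense here. The contrast with the whole cKO list follows in part from picking regions with many peaks in both lists. In Sfi1, 58.3% of 24 control and 65.2% of 23 cKO peaks matched. In Sp110 and Sp140 the shares were 62.5% of 8 and 55.6% of 9. Among other peaks with folds in the Speer4 range, 65.6% of 61 control and 3.08% of 1689 cKO peaks matched.

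In the first region the pairs lay before Gm17019 and farther before Gm10354. The pair at 15037383 to 15037800 in controls and 15037391 to 15037803 in cKO shared 410 bp, with folds of 2.02 and 1.73. The pair at 14995238 to 14995608 and 14995258 to 14995634 shared 351 bp, with folds of 1.997 and 1.80. The pair at 15035866 to 15036165 and 15035837 to 15036226 shared 300 bp, with folds of 1.83 and 1.90. The shared bases made up 98.1% and 99.3% of the control and cKO peaks in the first of these pairs, 94.6% and 93.1% in the next, and 100% and 76.9% in the last.

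In the second region the most shared bases, 553, belonged to the pair at 15509173 to 15510092 and 15509181 to 15509733, past the end of Gm21190, with folds of 1.88 and 1.89. The pair at 15646051 to 15646487 and 15646081 to 15646501 shared 407 bp, with folds of 1.88 and 2.11. The pair at 15679683 to 15680061 and 15679076 to 15680100 shared 379 bp, with folds of 1.93 and 2.19. The smallest overlap, 96 bp, was that of 15663312 to 15663806 with 15663711 to 15664137. Over all 9 pairs the cKO fold was the higher in 6 and the control fold in 3, with control folds of 1.80 to 2.16 and cKO folds of 1.73 to 2.43. Each list was scored against its own background and without replicates, so no direction of change is read from these folds.

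**Figure D4:**
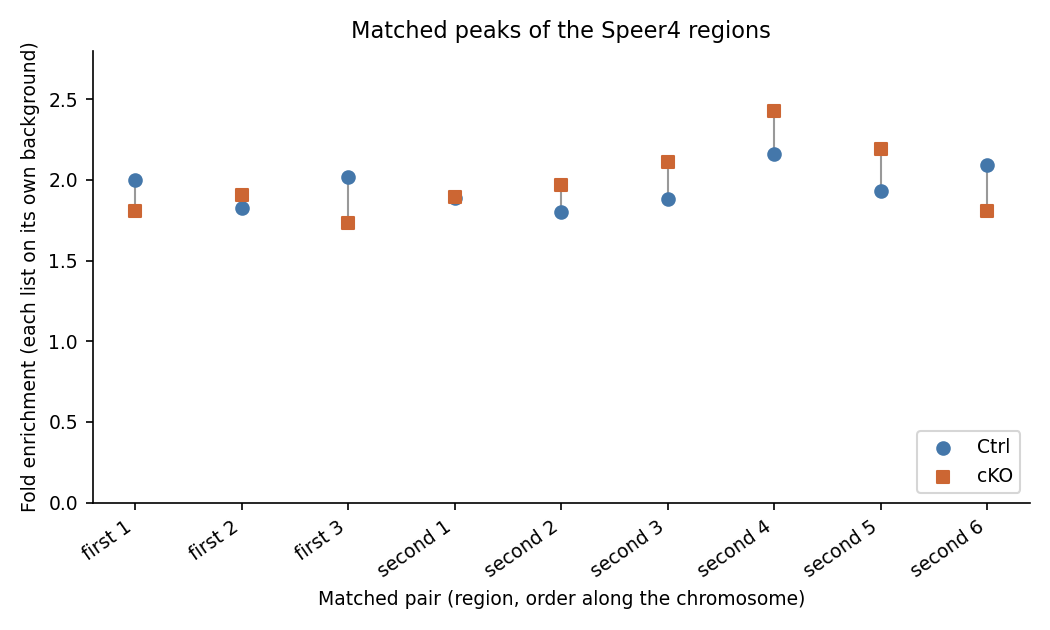
Fold enrichment of the 9 matched pairs (3 in the first and 6 in the second region), control as circles and cKO as squares joined by a line, in order along the chromosome. Both values of a pair lie between 1.73 and 2.43, with cKO above in 6 and control above in 3.

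The RefSeq table held 15 genes whose symbols begin with Speer, 5 inside the regions and 10 outside. Of those 10, 0 held a control peak and 1 held a cKO peak (0.166% and 3.12% of all annotated genes), the pseudogene Speer5-ps1 on chromosome 10 (fold 2.91, −log10 q 0.0640). In the body or within 10 kb of it the counts were 1 and 2, with Speer5-ps1 included in the cKO count. Speer4f1, a copy at 17476122 to 17480936 of chromosome 5, had a matched pair at lower coordinates, 7.32 and 7.81 kb from its body. The pair was a control peak of 973 bp (17467831 to 17468803, fold 2.31) and a cKO peak of 474 bp (17467844 to 17468317, fold 2.14). The cKO peak lay wholly inside the control peak. The neighbouring copy Speer4f2 and the copies Speer4a and Speer4b, also on chromosome 5, had 0 peaks within 10 kb, as did Speer1, Speer2 and Speer3 and the pseudogenes Speer6-ps1 and Speer9-ps1.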

How the data were processed

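The submitters' processing notes name cutadapt, Bowtie2 2.4.4, MACS2 and build mm10, and give neither the role nor the settings of any tool. The authors deposited 1 list of broad peaks per genotype, named by all 6 libraries of that genotype, per the labels, and peak names in the control list call it WT. Each row holds a fold enrichment (a ratio), a −log10 p, a −log10 q and a score, all by the authors' caller, as deposited, and the deposited score was not used. The lowest deposited −log10 p was 3.08 in controls and 3.02 in cKO.

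Positions were made 1-based and overlapped by at least 1 bp with 49943 RefSeq genes of GRCm38.p6, of which 21887 were protein-coding; strands and starts came from the RefSeq promoter table. Exons were not used here. Promoter windows were aligned globally with free end gaps (Biopython 1.88). Calculations used Python 3.11.15, pandas 2.3.3 and scipy 1.17.1. Interval overlap was tested on simulated data. No test between genotypes was possible with 1 list each, and depth is unknown. The members and the lists of genes were chosen with earlier results of these data known. Single peaks were named by the highest fold, width and −log10 q per region and list, and pairs by shared bases, 3 per region. Alternatives were stricter q and fold thresholds, wider regions and gene bodies, joined peaks and other overlap rules.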

Additional observations from a re-analysis of the deposited data

How the results depend on the processing

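No paired analysis was possible because values per replicate were not analysed here, and for the same reason no replicate could be left out. Of 78 values under alternatives, 37 stayed within 1.5 times the reported count or within the interval of the reported median, and 41 moved. At a −log10 q of 2 or more, the first region kept 1 control peak over 615 bp and 2 cKO peaks over 419 bp, and the second 0 control peaks over 0 bp and 2 cKO peaks over 980 bp. Then 0 control and 0 cKO peaks matched, 0 members held a peak of either list, the median width was 615 bp in controls and 337 bp in cKO, and the median cKO fold was 2.36. With a q-value under 0.05, the counts were 2 control peaks over 1033 bp and 3 cKO peaks over 941 bp in the first region, and 1 over 920 bp and 4 over 2461 bp in the second. Then 1 control and 1 cKO peak matched, 0 members held a peak of either list, the median control width was 615 bp and the median cKO fold was 2.31. At folds of at least 2.02, the median of both lists' Speer4 peaks together, 3 control peaks over 1499 bp stayed in the first region, with 6 control peaks over 3226 bp and 9 cKO peaks over 4501 bp in the second, and 1 control and 1 cKO peak matched. These thresholds keep fewer peaks by construction. With gene bodies widened by 2000 bp, 5 members held a control peak and 3 a cKO peak, and with 10000 bp, a distance added after the data were seen, 8 and 6. Joining of peaks under 1000 bp apart, other overlap rules (6 to 10 matched peaks per list) and peak midpoints moved no value beyond those bounds. Regions widened by 100 kb took in no further peak, since the nearest lay 401.9 kb away. Their values, counted among the 37, therefore could not move.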
